A study of Mus musculus with 6 samples.

Results

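The EGF receptor family and the ligand HB-EGF were examined in pancreatic islets as 7 genes taken by symbol: Hbegf and Btc (ligands), Egfr, Erbb2 and Erbb3 (receptors), Adam17 (the protease that releases ligands) and Errfi1 (a receptor inhibitor). Of these, 4 were among the 11106 genes of the count table (Hbegf, Egfr, Errfi1 and Adam17), and all 4 passed the filter on low counts. Erbb2, Erbb3 and Btc are not analysed here. The islets came from 6 male mice. The 3 knockout animals (numbers 11, 12 and 13) had the genotype Ern1 fl/fl; VE-cadherin-Cre-ERT2, in which tamoxifen deletes Ern1, the gene of the endoplasmic reticulum stress sensor IRE1α, in vascular endothelial cells. The 3 floxed littermates (numbers 8, 18 and 19) had the genotype Ern1 fl/fl. Animals of both genotypes were given tamoxifen at 4 weeks of age (2 mg, on 5 consecutive days), and from 8 weeks of age they ate a high fat diet (60% of kcal) for 16 weeks. No animal on another diet is in the series. The deleting Cre is carried by the knockout animals only, so deletion and Cre cannot be told apart. RNA came from whole islets, in which endothelial cells are a minority.

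EGF-like ligands are made as membrane-anchored precursors. Metalloproteases such as ADAM17 cut them free, and the released ligand binds EGFR, which pairs with itself or with another ErbB receptor and signals through adaptors to the RAS-ERK and PI3K cascades. The signal switches on its own inhibitors, among them ERRFI1 (also called MIG6), which binds the EGFR kinase domain. In rodent pancreas, EGFR signalling is known for its part in the growth of the beta cell mass, and HB-EGF for promoting the division of beta cells.

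The promoter of Errfi1 and that of Egfr are shown because these genes, an inhibitor and its receptor, behaved differently between the libraries. RefSeq (GRCm38.p6, the assembly also called mm10) gives start sites for both, and each window holds the 250 bases before a start site. Capitals mark matches, on either strand, to any of these motifs: the cAMP response element TGACGTCA, the TATA box TATAAA, the CCAAT box CCAAT, the GC box GGGCGG, the E-box CACGTG and the AP-1 motif TGANTCA.
Errfi1, second start site, chr4:150854820-150855069, plus strand: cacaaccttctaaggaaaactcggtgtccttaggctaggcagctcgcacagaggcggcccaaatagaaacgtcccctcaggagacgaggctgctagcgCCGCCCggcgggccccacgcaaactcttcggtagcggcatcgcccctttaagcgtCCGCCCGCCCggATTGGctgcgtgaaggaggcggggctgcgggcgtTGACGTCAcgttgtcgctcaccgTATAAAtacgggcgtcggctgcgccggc
Egfr, chr11:16751953-16752202, plus strand: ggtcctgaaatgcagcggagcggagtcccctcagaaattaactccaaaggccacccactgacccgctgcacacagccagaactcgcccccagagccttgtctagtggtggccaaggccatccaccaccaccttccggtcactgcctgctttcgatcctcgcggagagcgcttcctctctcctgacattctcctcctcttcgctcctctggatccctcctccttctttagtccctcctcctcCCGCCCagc
The Errfi1 window held 6 matches: 1 cAMP response element, 1 TATA box, 1 CCAAT box and 3 GC boxes, of which a pair overlap each other. The Egfr window held 1 GC box and no other match. Among 32851 RefSeq promoter windows of this length, 1.55% held the cAMP response element, 12.4% the TATA box, 33.8% the CCAAT box, 32.7% the GC box, 6.02% the E-box and 6.75% the AP-1 motif. The window before the other Errfi1 start site held 0 matches, and the Adam17 window held 1 GC box. A match is a string of letters, and which start site the islets used was not tested.

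Each library held between 18470720 and 18957444 counts. The insulin genes Ins1 and Ins2 made up 37.2%, 28.2% and 29.3% of them in knockout 11, 12 and 13. In floxed 8, 18 and 19 their share was higher, at 40.1%, 43.4% and 42.1%. The endothelial markers Pecam1 and Cdh5 were present in every library (at least 26.4 and 14.4 CPM, a library's counts rescaled to a common total by the TMM method). Ern1 stood at 41.9, 36.0 and 46.8 CPM in knockout animals 11, 12 and 13, while floxed animals 8, 18 and 19 had 30.1, 44.6 and 46.0 CPM. That whole-islet value checks the genotype very little, since other cells keep the gene. Floxed 8 stood apart from its group: 12 immediate early and heat shock genes, such as Jun and Hspa1b, held 1.24% of its counts, against 0.231% and 0.218% in floxed 18 and 19 and 1.83% to 1.94% in the knockout libraries. The 22 acinar (digestive enzyme cell) markers held 8.61% of the counts in floxed 8, 2.89% and 5.75% in floxed 18 and 19, and 12.7% to 18.3% in the knockout libraries, and none of them was at 0 in any library. In a bulk sample, fewer cells of a type and less RNA per cell cannot be told apart.

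Among the ligands, all 3 knockout libraries held more Hbegf than all 3 floxed ones. It encodes heparin-binding EGF-like growth factor, a ligand of EGFR and ERBB4, and lies on the minus strand of chromosome 18 from 36504927 to 36515805 (GRCm38). Its counts were 634, 974 and 747 in knockout 11, 12 and 13, which is 36.2, 49.4 and 41.6 CPM. In floxed 8, 18 and 19 they were 347, 217 and 218, which is 20.1, 10.4 and 11.1 CPM. The groups did not overlap, and the lowest knockout library was 1.80-fold above floxed 8, which was itself 1.86-fold above the mean of floxed 18 and 19. The means were 42.4 ± 6.65 CPM in knockout islets and 13.9 ± 5.38 CPM in floxed ones (SD, n = 3 each). On the log2 scale the fitted difference was 1.62 (standard error 0.27, 95% interval 0.99 to 2.25), so knockout islets were higher 3.08-fold, within 1.98 to 4.77. Its unadjusted p was 0.000573, rank 91 of 11080 genes, and its adjusted p over all tested genes was 0.0683 (edgeR quasi-likelihood test, Benjamini-Hochberg), so it missed the threshold of 0.05.

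The size of the Hbegf difference did not hinge on 1 library, but its call did. With single libraries left out, the log2 fold change ran from 1.45 to 1.97. Without floxed 8 it was 1.97 and passed (edgeR adjusted p = 1.45e-05), in a fit that called 14.3% of all tested genes. The difference was smaller with the mean level of the acinar markers as a covariate (log2 fold change 0.72, edgeR adjusted p = 0.584). It was also smaller with that of the immediate early and heat shock genes (0.92, edgeR adjusted p = 0.0607). Those fits called 0 and 75 of the 11080 tested genes. Both marker levels, like Hbegf, were lowest in floxed 18 and 19 and highest in the knockout libraries, and their part in the result was not tested beyond these fits.

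**Figure D1:**
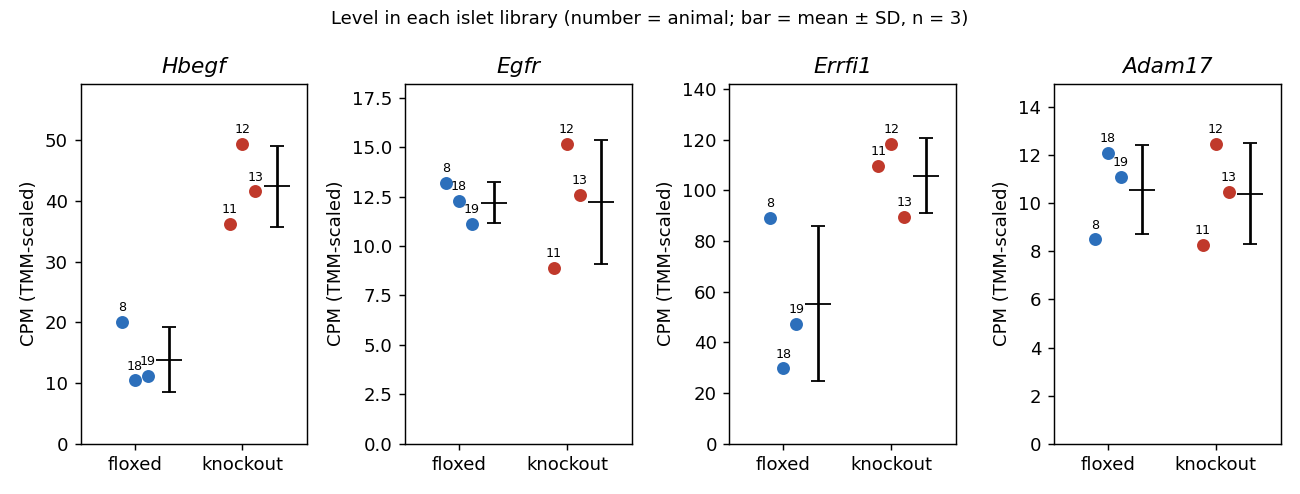
Level of Hbegf, Egfr, Errfi1 and Adam17 in each islet library, in CPM scaled by TMM on axes that start at 0, with blue points for floxed and red points for knockout animals and a black bar for the mean ± SD of 3 libraries. The Hbegf groups stand apart (at most 20.1 CPM in floxed, at least 36.2 CPM in knockout), floxed 8 touches the knockout range for Errfi1 (89.0 against 89.4 CPM), and Egfr and Adam17 overlap fully.

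The other measured ligands differed less. Tgfa, which encodes transforming growth factor alpha, stood at 8.79, 6.75 and 9.24 CPM in knockout animals 11, 12 and 13, while floxed animals 8, 18 and 19 had 5.38, 6.43 and 6.72 CPM, a fitted log2 difference of 0.41 (edgeR adjusted p = 0.234). The groups did not overlap, but knockout 12 and floxed 19 nearly met. Annotated exons of an uncharacterised gene on the other strand, Gm43917, cover 1.82% of the Tgfa exon bases, and the sources used here do not say whether counting used strand. Egf, the founding ligand of the family, stood at 15.04 ± 2.01 CPM in knockout islets, beside 14.8 ± 1.73 CPM in floxed ones (SD, n = 3 each; log2 fold change 0.02, edgeR adjusted p = 0.950). Of the 11 ligands listed, 3 were in the table. By edgeR 0 of these passed and 2 had an unadjusted p below 0.05, beside 0.406% and 17.9% of all genes. Of the ligands 1, Hbegf, passed with each of DESeq2, limma-voom and limma-voom with quality weights, which called 5.09%, 0.406% and 15.1% of all genes.

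Egfr, the receptor itself, did not separate the groups. It lies on chromosome 11 from 16752203 to 16918158, plus strand. Its counts were 156, 299 and 226 in knockout 11, 12 and 13 (8.91, 15.2 and 12.6 CPM) and 228, 256 and 218 in floxed 8, 18 and 19 (13.2, 12.3 and 11.1 CPM). The lowest and the highest value of all 6 were both in knockout libraries, and the floxed libraries lay between them. The means were 12.2 ± 3.15 and 12.2 ± 1.05 CPM (SD, n = 3 each). The log2 fold change was 0.01, with a 95% interval from -0.41 to 0.43 and an edgeR adjusted p of 0.990, so a difference of up to 1.34-fold in either direction is within the error. Its sign turned in 7 of the other fits that used all libraries or left out a pair.

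Knockout 12 had the highest CPM of Egfr, Hbegf, Errfi1 and Adam17 alike. It also had the most counts of 5 fibroblast and stellate cell markers (0.0224% of its counts, against 0.00126% to 0.00304% in the other libraries). Col1a1, a fibrillar collagen, was at 44.7 CPM there and at 4.78 CPM or less elsewhere. Without knockout 12 the log2 fold change of Egfr was -0.18 and that of Hbegf 1.49 (edgeR adjusted p = 0.727 and 0.170). The 7 macrophage markers were highest in the same library, at 0.0117% of counts against 0.00459% to 0.00792%. The part of these cells in the values of Egfr and the other members was not tested.

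Adam17, the main sheddase of HB-EGF and TGF-alpha, overlapped fully between the groups as well. It lies on chromosome 12 from 21323509 to 21373632, minus strand, and 4.35% of its exon bases are shared with Iah1 on the other strand. Its counts were 145, 246 and 188 in knockout 11, 12 and 13 (8.28, 12.5 and 10.5 CPM) and 147, 252 and 218 in floxed 8, 18 and 19 (8.50, 12.1 and 11.1 CPM). Knockout 11 and floxed 8 were low and the other libraries of both groups lay higher. The log2 fold change was -0.02 with a 95% interval from -0.44 to 0.40 (edgeR adjusted p = 0.968), and its sign turned where either marker level was a covariate (0.35 with the acinar and 0.38 with the immediate early level).

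Of the partners that carry ADAM17 to the cell surface, none passed. Rhbdf2, which encodes iRhom2, stood at 5.03, 6.65 and 5.90 CPM in knockout animals 11, 12 and 13, while floxed animals 8, 18 and 19 had 3.06, 2.31 and 3.51 CPM (log2 fold change 0.99, SE 0.21, edgeR adjusted p = 0.0705). Rhbdf1, its relative iRhom1, stood at 7.42, 10.7 and 9.85 CPM in the knockout libraries, while the floxed ones had 6.82, 4.03 and 4.99 CPM (log2 fold change 0.83, SE 0.22, edgeR adjusted p = 0.110). The groups did not overlap for these 2 of the 7 measured genes, both higher in knockout, beside 14.1% of all genes. Floxed 8 lay apart from the knockout libraries for Rhbdf2 and near knockout 11 for Rhbdf1. Frmd8, a further partner that stabilises the iRhoms, had a fitted log2 difference of 0.01 (edgeR adjusted p = 0.984). For Adam10, another sheddase of the family, the log2 fold change came to 0.17, and for Timp3, an inhibitor of ADAM17, to 0.07 (edgeR adjusted p = 0.623 and 0.811). By edgeR 0 of 7 measured genes passed and 2 had an unadjusted p below 0.05, beside 0.406% and 17.9% of all genes. DESeq2 called 2, limma-voom 0 and limma-voom with quality weights 2, beside 5.09%, 0.406% and 15.1% of all genes. Their median log2 fold change was 0.07, beside 0 for all tested genes. Without floxed 8, Rhbdf1 and Rhbdf2 passed (log2 fold changes 1.04 and 1.01, edgeR adjusted p = 0.00481 and 0.0148), in the fit that called 14.3% of all genes. Adjusted for the acinar level they were 0.0063 and 0.45 (edgeR adjusted p = 0.998 and 0.745), and for the immediate early level 0.33 and 0.91 (edgeR adjusted p = 0.507 and 0.183).

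Errfi1, the feedback inhibitor, was the most variable of the 4 genes within the floxed group. It lies on chromosome 4 from 150853919 to 150868892, plus strand. Its counts were 1920, 2334 and 1607 in knockout 11, 12 and 13 (109.6, 118 and 89.4 CPM) and 1539, 618 and 930 in floxed 8, 18 and 19 (89.0, 29.7 and 47.3 CPM). The groups did not overlap, but floxed 8 and knockout 13 were nearly equal, while floxed 18 and 19 lay far lower. The means were 106 ± 14.9 CPM in knockout islets and 55.3 ± 30.5 CPM in floxed ones (SD, n = 3 each). The fitted difference was 0.94 on the log2 scale (standard error 0.41, 95% interval -0.11 to 1.99, edgeR adjusted p = 0.322). Without floxed 8 it was 1.45 (edgeR adjusted p = 0.0249). Adjusted for the immediate early level it was 0.036 and for the acinar level, where the sign turned, -0.37 (edgeR adjusted p = 0.964 and 0.758).

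Other inhibitors of the receptors were mixed. Lrig1, which draws ErbB receptors into degradation, stood at 20.5, 27.1 and 24.9 CPM in knockout animals 11, 12 and 13, while floxed animals 8, 18 and 19 had 19.5, 15.9 and 17.9 CPM (log2 fold change 0.44, edgeR adjusted p = 0.131). For Lrig2, its relative, the log2 fold change came to 0.43, and the ubiquitin ligase genes Cblb and Cbl, whose products mark activated EGFR for degradation, had values of 0.44 and 0.28 (edgeR adjusted p = 0.131, 0.147 and 0.358). Rnf41, a ubiquitin ligase for ERBB3, and Ptpn1, a tyrosine phosphatase that acts on EGFR, had values of -0.23 and -0.08 (adjusted p = 0.418 and 0.633). This group had 9 measured genes, Errfi1 included. By edgeR 0 of them passed and 3 had an unadjusted p below 0.05, beside 0.406% and 17.9% of all genes. DESeq2 and limma-voom called 0 each and limma-voom with quality weights 4, beside 5.09%, 0.406% and 15.1% of all genes. The median log2 fold change was 0.28, with 5 positive and 4 negative values.

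**Figure D2:**
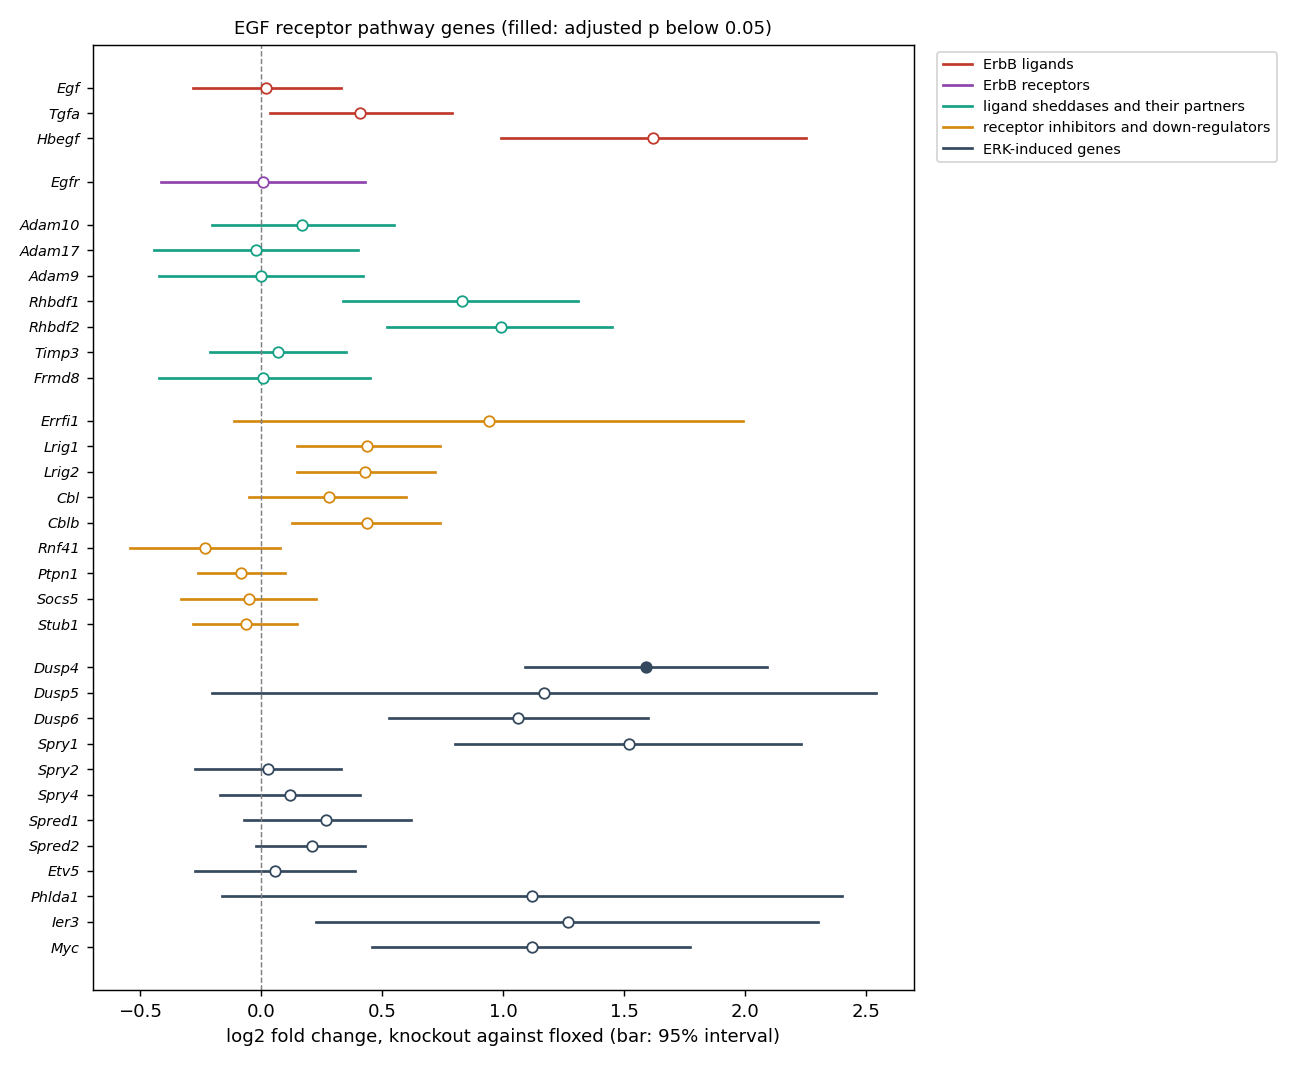
Log2 fold change of knockout against floxed islets for the measured ligands, receptor, sheddases and partners, inhibitors and ERK-induced genes, with 95% intervals from the edgeR fit and a filled point for an adjusted p below 0.05. Dusp4 is the filled point (1.59), Hbegf is the ligand farthest from 0 (1.62), and Egfr (0.01) and Adam17 (-0.02) sit on the line of no difference.

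Of the 4 members tested, 0 passed by edgeR over all genes, where 0.406% of all genes passed (0.343% higher and 0.0632% lower in knockout islets). At an unadjusted p below 0.05 stood 1 member, Hbegf, beside 17.9% of all genes. DESeq2 called 1 member and 5.09% of all genes, limma-voom 1 member and 0.406% of all genes, and limma-voom with quality weights 2 members and 15.1% of all genes. The groups did not overlap for 2 of the 4 members, both higher in knockout, beside 24.3% of all genes without overlap (14.1% higher and 10.2% lower). Without floxed 8, 2 members passed, Hbegf and Errfi1, both higher, where 8.59% of all genes passed higher and 5.70% lower.

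Compared per kilobase of annotated exon, Errfi1 was the most abundant of the 4 genes in every library. Its level ran from 25.0 to 33.1 CPM per kb in knockout and from 8.29 to 24.8 CPM per kb in floxed libraries. Hbegf followed, at 7.49 to 10.2 CPM per kb in knockout and 2.16 to 4.15 CPM per kb in floxed libraries. Adam17 and Egfr were the lowest. They overlapped in knockout (1.16 to 1.75 against 0.787 to 1.34 CPM per kb), while in floxed libraries Adam17 lay just above Egfr (1.19 to 1.69 against 0.980 to 1.16 CPM per kb). The lengths count every annotated exon, 11326 bases for Egfr and 3582 for Errfi1, so a gene with many rarely used exons reads low.

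The ratio of Hbegf to Egfr in a library does not depend on how libraries are scaled. Per kilobase it was 9.52, 7.63 and 7.74 in knockout 11, 12 and 13 and 3.57, 1.99 and 2.34 in floxed 8, 18 and 19. The groups did not overlap. That the ratio was above 1 in every library rests on the annotated exon lengths. In counts, Hbegf was below Egfr in floxed 18 (217 against 256) and equal to it in floxed 19 (218 each). The ratio of Hbegf to Adam17 was 6.47, 5.86 and 5.88 in the knockout and 3.49, 1.27 and 1.48 in the floxed libraries. Errfi1 to Hbegf went the other way in most libraries, at 4.09, 3.23 and 2.90 in the knockout and 5.99, 3.84 and 5.76 in the floxed ones, with knockout 11 above floxed 18.

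Genes with a profile like each member were looked for among 11034 genes with a mean of at least 1 CPM, by the root mean square difference of log2 CPM, centred on each gene's mean, over the 6 libraries. Nearest to Hbegf were Arid5b (0.0613), Nfil3 (0.0678) and Spry1 (0.0811), where Hbegf itself varied by 0.891 around its mean. Arid5b and Nfil3 encode DNA-binding proteins, and Spry1 a feedback inhibitor of receptor tyrosine kinase signalling. Spry1 stood at 4.36, 4.81 and 4.44 log2 CPM in knockout 11, 12 and 13 and at 3.65, 2.63 and 2.62 in floxed 8, 18 and 19, where Hbegf stood at 5.18, 5.63 and 5.38 and at 4.33, 3.40 and 3.49.

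Nearest to Errfi1 were Sinhcaf (0.132), Cryab (0.137) and Fam107b (0.169), with Errfi1 varying by 0.715. Sinhcaf encodes a subunit of the SIN3 histone deacetylase complex and Cryab a small heat shock protein. Egfr and Adam17 varied little (0.234 and 0.228). The genes nearest to Egfr were Fam81a, Neu2 and Pih1d1 (0.0444 to 0.0593), and those nearest to Adam17 were Aen, Ubtd2 and Isg20l2 (0.0616 to 0.0701). Between members the difference was 0.387 for Hbegf and Errfi1 and 0.213 for Egfr and Adam17, and 0.737 to 0.956 for the other pairs.

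**Figure D3:**
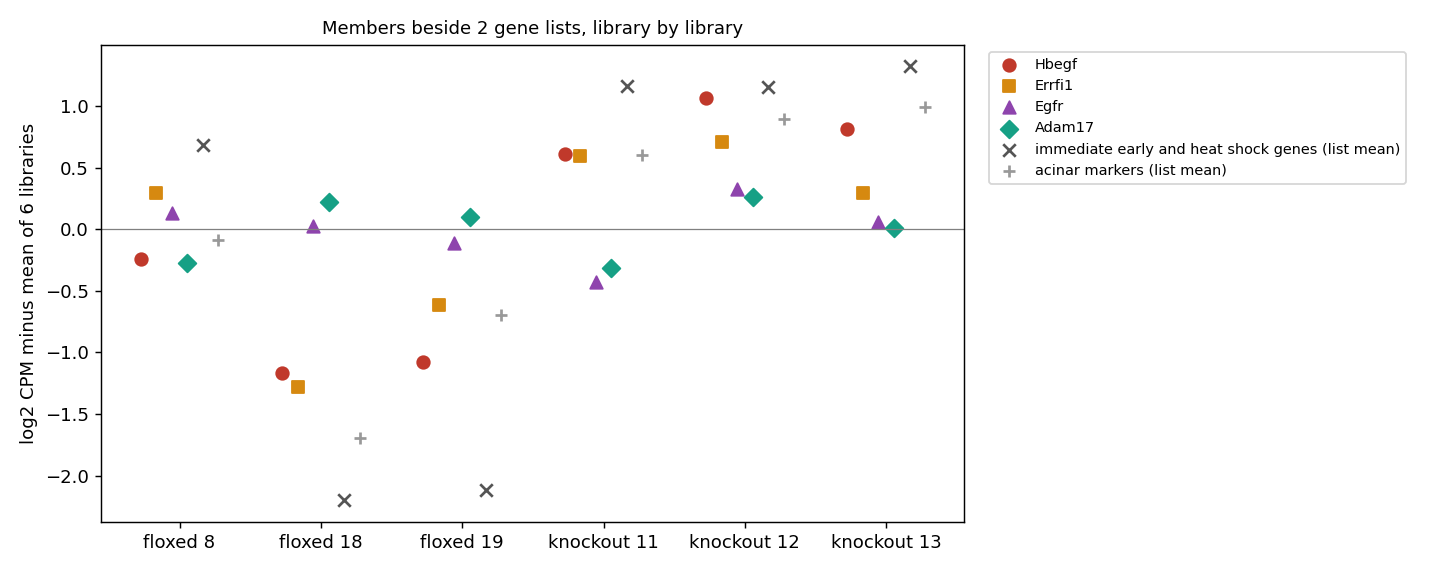
Log2 CPM of Hbegf, Errfi1, Egfr and Adam17 in each library, minus the gene's mean over the 6 libraries, with the mean of the immediate early and heat shock list and of the acinar list treated likewise. Hbegf, Errfi1 and both lists are lowest in floxed 18 and 19, floxed 8 lies between those and the knockout libraries for Hbegf (4.33 log2 CPM) and level with knockout 13 for Errfi1 (6.48 in both), and Egfr and Adam17 vary least.

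Genes that the ERK arm of the pathway switches on had positive values in 12 of 12 measured cases, with a median log2 fold change of 1.09. Of all 11080 tested genes 5481 were positive. The rise was not uniform: Spry2, Etv5 and Spry4 were near 0, at 0.03, 0.06 and 0.12 (edgeR adjusted p = 0.931, 0.864 and 0.657). Without floxed 8, 11 of the 12 were positive, and Etv5 was at -0.09. Dusp4, a phosphatase that switches ERK off, was the gene of this list that passed. It rose to 16.4, 12.3 and 20.8 CPM in knockout animals 11, 12 and 13, while floxed animals 8, 18 and 19 had 4.51, 6.67 and 5.19 CPM (log2 fold change 1.59, SE 0.22, edgeR adjusted p = 0.0358). Floxed 8 was the lowest of all libraries for this gene. The call ended without knockout 11, knockout 13 or floxed 19 (edgeR adjusted p = 0.0986, 0.163 and 0.111). There the log2 fold change was 1.59, 1.39 and 1.55, and the fits called 0, 0 and 16 genes of the whole table. It also ended in the fits adjusted for the acinar or for the immediate early level (edgeR adjusted p = 0.496 and 0.0625). In these the log2 fold change was larger, at 2.10 and 1.91, and the fits called 0 and 75 genes. Spry1 had a log2 fold change of 1.52, Dusp6, another ERK phosphatase, one of 1.06, and the transcription factor Myc one of 1.12 (edgeR adjusted p = 0.0805, 0.0862 and 0.121). Adjusted for the acinar level these were 0.56, 0.12 and 0.013. The median of the list was 0.07 when adjusted for the acinar level and 0.27 when adjusted for the immediate early level. In either fit 0 of the 12 passed, but these fits called only 0 and 75 of all 11080 genes. By edgeR 1 of 12 passed and 5 had an unadjusted p below 0.05, beside 0.406% and 17.9% of all genes. DESeq2 called 5, limma-voom 1 and limma-voom with quality weights 7, beside 5.09%, 0.406% and 15.1% of all genes. The groups did not overlap for 7 of the 12, all higher in knockout, beside 14.1% of all genes.

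The adaptors that link receptors to RAS and PI3K had a median log2 fold change of 0.03 over 12 genes, with 7 positive and 5 negative values. Gab1 and Gab2, docking proteins of activated receptors, had values of 0.60 and 0.39, and Sos1, which loads RAS with GTP, one of 0.26 (edgeR adjusted p = 0.165, 0.130 and 0.170). Eps8, a substrate of EGFR, stood at 21.0, 13.3 and 13.1 CPM in knockout animals 11, 12 and 13, while floxed animals 8, 18 and 19 had 20.9, 32.8 and 30.6 CPM, so that floxed 8 lay within the knockout range (log2 fold change -0.84, edgeR adjusted p = 0.138). By edgeR 0 adaptors passed and 4 had an unadjusted p below 0.05, beside 0.406% and 17.9% of all genes. DESeq2 called 1, limma-voom 0 and limma-voom with quality weights 4, beside 5.09%, 0.406% and 15.1% of all genes. Without floxed 8, Gab1 passed higher and Eps8 lower (log2 fold changes 0.79 and -1.01, edgeR adjusted p = 0.0123 and 0.0285), in the fit that called 14.3% of all genes.

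The 12 immediate early and heat shock genes had positive values throughout, with a median log2 fold change of 1.76, and 11 of 12 did not overlap between the groups, beside 14.1% of all genes higher without overlap. Jun, an AP-1 subunit, stood at 2485, 2285 and 2607 CPM in knockout animals 11, 12 and 13, while floxed 8 had 1409 CPM and floxed 18 and 19 had 294 and 301 CPM (log2 fold change 1.88, edgeR adjusted p = 0.227). Hsph1 and Hspa1b, heat shock chaperones, and Nr4a1, an early-response nuclear receptor, had values of 1.72, 1.80 and 1.69 (adjusted p = 0.233, 0.285 and 0.287). Hspa1b has a near-identical neighbour, Hspa1a, and the sources used here do not say how their reads were split. By edgeR 0 of the 12 passed and 2 had an unadjusted p below 0.05, beside 0.406% and 17.9% of all genes. With DESeq2 or limma-voom 0 passed, beside 5.09% and 0.406% of all genes, and 12 passed with quality weights, where 15.1% of all genes did. Without floxed 8, 12 passed, in the fit that called 14.3% of all genes.

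Levels of markers of other cells also differed between libraries, although by edgeR 0 of 22 acinar, 0 of 8 ductal and 0 of 14 endothelial markers passed, with 21, 6 and 7 at an unadjusted p below 0.05. DESeq2 called 15, 4 and 3 of them, limma-voom 1, 0 and 0, and limma-voom with quality weights 21, 4 and 7. Of all genes, 0.406% passed by edgeR and 17.9% had an unadjusted p below 0.05. The other tools, in the order given, called 5.09%, 0.406% and 15.1% of all genes. Over the 22 acinar markers the median was 1.52 on the log2 scale, and 21 of them did not overlap, beside 14.1% of all genes higher without overlap. Ptf1a, an acinar transcription factor, had the largest log2 fold change of the list (2.70). It ran from 8.68 to 21.1 CPM in knockout and from 1.01 to 3.18 CPM in floxed libraries. Bhlha15, another acinar transcription factor, overlapped, at 63.9 to 142 CPM in knockout and 77.2 to 110 CPM in floxed libraries (log2 fold change 0.04). The 8 measured ductal markers had a median of 0.68 and held 0.0814% to 0.101% of counts in knockout and 0.0572% to 0.0717% in floxed libraries. The 14 endothelial markers had a median of -0.28, at 0.0517% to 0.0534% of counts in knockout, 0.0518% in floxed 8 and 0.0809% and 0.0733% in floxed 18 and 19. Of the Schwann cell markers, cells known for ErbB receptor signalling, 3 were in the table, with a median of -0.02. No marker of these lists was at 0 in any library. Which of these cells the Hbegf and Errfi1 reads came from was not tested.

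**Figure D4:**
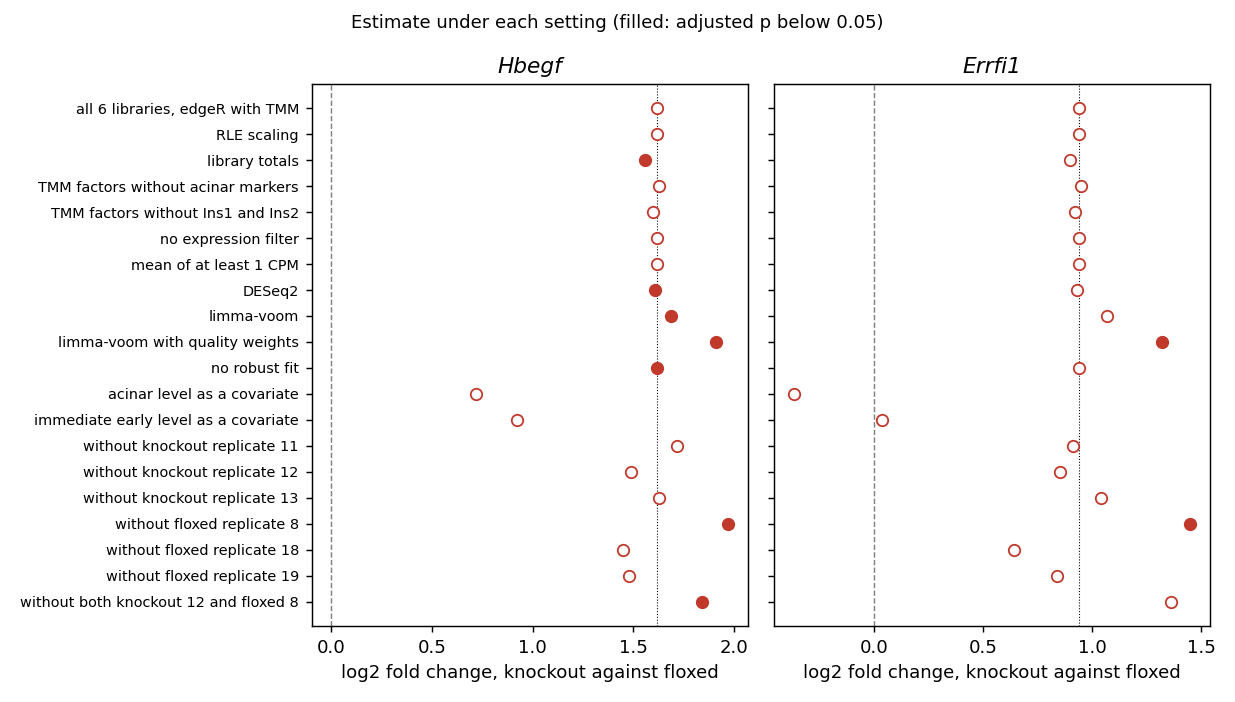
Log2 fold change of Hbegf (left) and Errfi1 (right) under each setting, with filled points for an adjusted p below 0.05, a dotted line at the value from all 6 libraries and a dashed line at 0. Hbegf stays between 0.72 and 1.97, and Errfi1 runs from -0.37 to 1.45.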

How the data were processed

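Gene-level RNA-seq counts of whole islets were used. The tools named are fastp, HISAT2 and StringTie, with build mm10, per the submitters' processing notes. The sources used here do not say how reads were counted, or whether by strand. What the authors deposited are estimated counts without normalization, fractional somewhere in 1422 of 11106 genes (12.8%). The counts of the 4 members were whole. Members and gene lists were chosen with earlier results of these data known.

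After rounding, filterByExpr of edgeR (count at least 10, total at least 15) kept 11080 genes, which were scaled by TMM (factors 0.924 to 1.11). Groups were compared with edgeR 4.0.16 (robust quasi-likelihood, R 4.3.3), and p-values were adjusted by Benjamini-Hochberg over all tested genes with a threshold of 0.05. Intervals are at 95%, and log2 CPM carry a prior count of 2. The fit was tested on simulated data. Libraries come from separately numbered animals and varied beyond sampling noise within each group (chi-square divided by genes, 20.2 or more). About 18.8 counts make 1 CPM. Alternatives included RLE scaling, library totals, other filters, DESeq2 1.42.0, limma-voom (limma 3.58.1), covariates and left-out libraries. Named genes were the members, genes of the ligand, sheddase and inhibitor lists, in each other list the 4 with the smallest unadjusted p, and for each member the 3 nearest profiles. Which genes of the first 3 lists are named, and the motifs, were decided after values were seen. So were Pecam1, Cdh5, Col1a1, Ptf1a, Bhlha15, Spry2, Etv5 and Spry4. Gene positions and exon lengths come from GENCODE M21 (GRCm38), and the 4 member identifiers matched RefSeq.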

Additional observations from a re-analysis of the deposited data

How the results depend on the processing

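No paired analysis was possible because the groups share no replicate number. The sources used here do not say which animals shared a litter or a batch. Over 19 alternatives Hbegf was positive in every one. It passed with library totals (1.56 on the log2 scale), DESeq2 (1.61), limma-voom (1.69), quality weights (1.91), no robust fit (1.62) and without both knockout 12 and floxed 8 (1.84). With single libraries left out, Hbegf ran from 1.45 to 1.97, Errfi1 from 0.64 to 1.45, Egfr from -0.18 to 0.18, Adam17 from -0.18 to 0.11, Egf from -0.089 to 0.098 and Timp3 from -0.05 to 0.15. Errfi1 passed with quality weights (1.32) and turned to -0.37 with the acinar covariate. Egfr turned negative with library totals (-0.068), TMM factors without Ins1 and Ins2 (-0.013), DESeq2 (-0.00017), limma-voom (-0.015), the acinar (-0.20) and immediate early covariates (-0.14) and without both libraries (-0.13). Adam17 turned positive with these covariates (0.35 and 0.38). Egf turned with library totals (-0.073), quality weights (-0.026) and without both libraries (-0.053), Timp3 with library totals (-0.026), Adam10 without both libraries (-0.061), and Gab1 and Hsph1 with the acinar covariate (-0.045 and -0.16). The number of members called was 1 with library totals, 1 with DESeq2, 1 with limma-voom and 2 with quality weights. It was 1 with no robust fit, 1 without both libraries and 0 to 2 with single libraries left out. In that order these settings called 38, 564, 45, 1671, 37, 1393 and 0 to 1584 genes of the whole table. Of the ligands, 1 was called with library totals, DESeq2, limma-voom, quality weights, no robust fit and without both libraries (0 to 1 with single libraries left out). Of the ERK-induced genes, 5 were called with DESeq2, 7 with quality weights, 0 with the acinar covariate, 0 with the immediate early covariate and 6 without both libraries (0 to 7). Of the immediate early and heat shock genes, 12 were called with quality weights and 11 without both libraries (0 to 12). Of the sheddases and their partners, 2 were called with DESeq2, 2 with quality weights and 2 without both libraries (0 to 2), of the adaptors 1, 4 and 2 (0 to 2), and of the inhibitors 4 with quality weights and 1 without both libraries (0 to 3). Over the whole table, genes called higher numbered 428 with DESeq2, 1096 with quality weights, 0 with the acinar covariate and 818 without both libraries (0 to 952). Genes called lower numbered 4 with RLE scaling, 4 with TMM factors without acinar markers, 136, 575, 0 and 575 in the order just given, and 33 with the immediate early covariate (0 to 632). The median of the ligands was 0.31 with library totals, 0.64 with the acinar and 0.65 with the immediate early covariate (0.32 to 0.54 with single libraries left out). With the same covariates the median of the ERK-induced genes was 0.07 and 0.27 (0.83 to 1.36) and that of the sheddases and their partners 0.35 and 0.38, with -0.06 without both libraries (0.02 to 0.15). That of the immediate early and heat shock genes was -0.31 and 0.04, with 2.94 without both libraries (1.39 to 2.91). The 0.04 was fixed in advance, since the immediate early covariate is the mean level of these same genes. The median of the adaptors was -0.06 with library totals, 0.07 with the immediate early covariate and -0.02 without both libraries (-0.01 to 0.08). That of the inhibitors was 0.18 with library totals, 0.18 with quality weights, 0.04 and 0.12 with the covariates and 0.06 without both libraries (0.14 to 0.35). The cause of the other shifts was not tested. With 3 libraries a group, an exact permutation test of 1 gene cannot go below p = 0.10.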
